A study of Mus musculus with 6 samples.

Results

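The 10 genes described here mark T cells and natural killer (NK) cells and were followed in whole mouse tibia. They are the CD3 chain genes *Cd3e*, *Cd3d* and *Cd3g*, the coreceptor genes *Cd4*, *Cd8a* and *Cd8b1*, the kinase gene *Lck*, the NK receptor genes *Klrb1c* and *Ncr1*, and the granzyme gene *Gzma*. They were chosen by name, not by their values, though with earlier results of these data known. All 10 were found by GENCODE M21 symbol among the 55401 gene identifiers of each count table. RNA was taken from the tibias of 3 Atrx-cKO mice, labelled Osterix-Cre; Atrxf/y, and 3 control mice, labelled Atrxf/y, all males at 8 weeks of age. The Atrx-cKO mice carried a floxed *Atrx* allele and Osterix-Cre, a tetracycline-repressible transgene in which the Osterix (*Sp7*) promoter drives Cre in the osteoblast lineage, and the control mice carried the floxed allele without Cre. Doxycycline was given to hold Cre back until the mice were 3 weeks old. No library came from a mouse with Cre and an intact *Atrx* allele, so *Atrx* loss and the presence of the transgene cannot be told apart here. The promoter is that of an osteoblast lineage gene, so the T and NK cells of the tibia were not themselves the cells aimed at.

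The tibia is filled with bone marrow, a tissue in which mature T cells and NK cells are present alongside the far more numerous myeloid, erythroid and B lineage cells. T cells recognize peptides on other cells with a T cell receptor, whose signal passes through the CD3 chains to the kinase LCK. CD4 and CD8 bind major histocompatibility complex molecules and bring LCK to the receptor. NK cells carry no rearranged receptor, read target cells through receptors such as NKp46 (*Ncr1*) and NK1.1 (*Klrb1c*), and kill through perforin and granzymes, as cytotoxic T cells do.

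None of the 10 genes was called different between Atrx-cKO and control tibias. Calls needed an adjusted p under 0.05 from edgeR and a change of 1 or more on the log2 scale, the thresholds of the study, and 0.0145% of the 20636 tested genes (3 genes, in either direction) were. At an unadjusted p under 0.05, 1 member was higher (*Gzma*) and 0 were lower, beside 1.59% of all tested genes higher and 2.05% lower. *Gzma* was also the 1 member with every Atrx-cKO library above every control library, and *Cd3d* the 1 member with every Atrx-cKO library below every control library. Among all tested genes the groups separated in these ways for 7.10% (above) and 2.26% (below) on CPM (counts scaled to a common total of reads on genes), and for 4.30% and 4.01% on CPM scaled by TMM normalization. Both members separated on either scale. DESeq2 called 0 of the 10 members too, beside 0.0975% of the 23588 genes to which it gave an adjusted p, and it gave 1 member, *Gzma*, an unadjusted p under 0.05.

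Each library held between 50977777 and 70571655 reads on genes, so that 3 counts stood for 0.0425 to 0.0588 CPM, and all 10 members passed edgeR's expression filter. The lowest member count in any library was 26. *Atrx* itself, counted over the whole gene and all cells of the tibia, had 168 ± 12.1 CPM in Atrx-cKO and 165 ± 15.8 CPM in control tibias (SD, n = 3 each), with a log2 fold change of -0.047 (adjusted p = 0.992, edgeR), so these whole-bone counts do not check the genotype labels. Osteoblast genes were abundant, with *Sp7* at 325 ± 41.2 CPM in Atrx-cKO and 351 ± 40.5 CPM in control tibias (SD, n = 3 each). Control 3 stood apart: 10 skeletal muscle genes summed to 10330 CPM there and to between 672 and 2269 CPM in the other 5 libraries. Control 3 also held the lowest value of 6 of the 10 members and the highest of none. The part of muscle RNA in these values was not tested. The members' fold changes and the medians of the members and of the T and NK lists are also given without control 3.

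**Figure D1:**
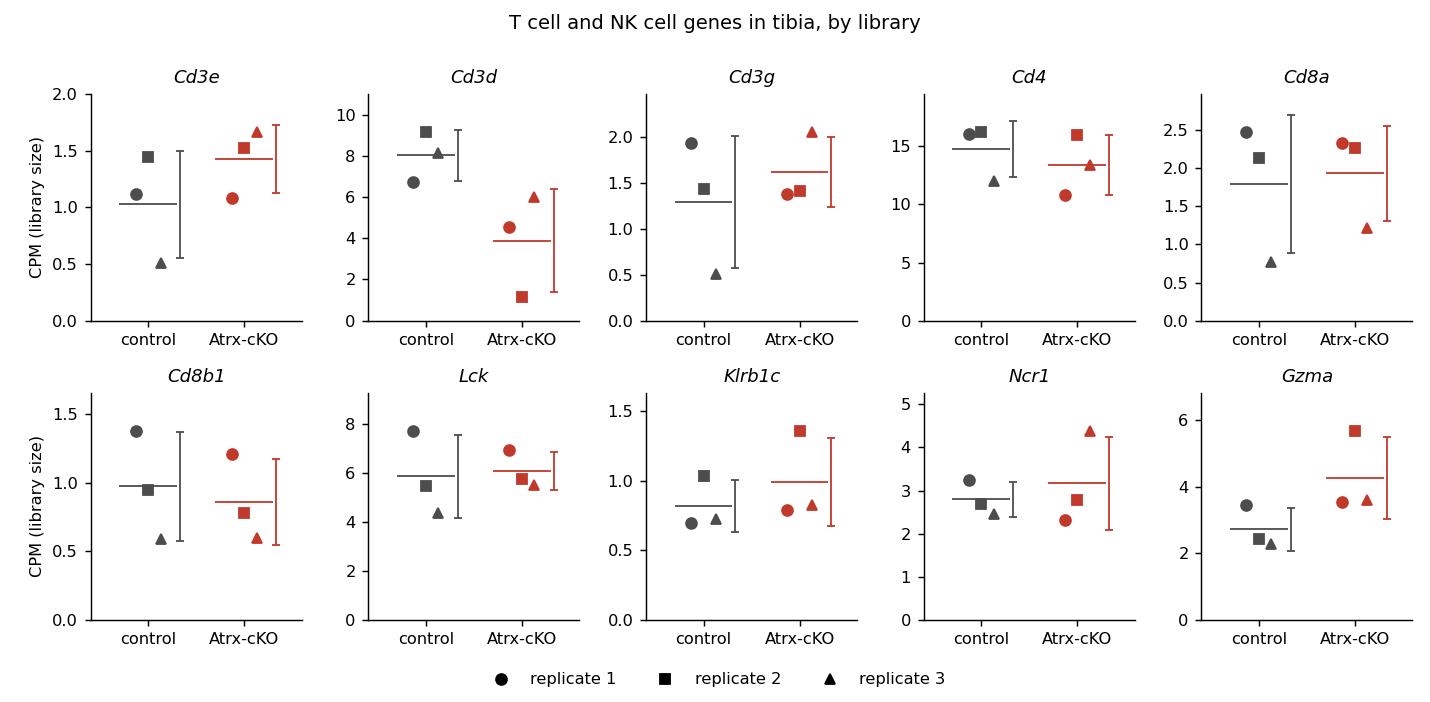
CPM of the 10 members (vertical axes, each from 0) in control (grey) and Atrx-cKO (red) libraries, with 1 point per library and replicate numbers as symbols. Horizontal lines are group means and bars are 1 SD over 3 libraries. The groups separate for *Cd3d*, between 1.14 and 5.99 CPM in Atrx-cKO and between 6.75 and 9.18 CPM in control, and narrowly for *Gzma*, and overlap for the other 8 genes.

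The 3 CD3 genes lie together on chromosome 9 (GRCm38, GENCODE M21). *Cd3g* (ENSMUSG00000002033) spans chr9:44969572-44980431 on the minus strand, *Cd3d* (ENSMUSG00000032094) chr9:44981786-44987339 on the plus strand and *Cd3e* (ENSMUSG00000032093) chr9:44998740-45009627 on the minus strand. The start sites of *Cd3g* and *Cd3d* are 1355 bases apart and face away from each other. The counts of *Cd3d* did not follow those of *Cd3e* and *Cd3g*. The promoter windows of the 3 genes are shown, each from 250 bases before to 50 bases after the start site, 5′ to 3′ on the gene's own strand (RefSeq, GRCm38.p6). They are chr9:45009562-45009861 (minus) for *Cd3e*, chr9:44981536-44981835 (plus) for *Cd3d* and chr9:44980382-44980681 (minus) for *Cd3g*. Capitals mark matches, on either strand, to short motifs of 4 families of transcription factors that act in lymphocytes, none of which contains another. The RUNX family was searched by the letters TGTGGT, which lie at the core of its binding site. For the ETS family, to which many blood cell factors belong, the letters were AGGAAG on the strand read here. GATA factors, among them the T cell factor GATA3, were represented by the letters AGATAA in the search. The TCF and LEF factors that follow Wnt signals were looked for by the letters CTTTGA in the same way.
Cd3e promoter: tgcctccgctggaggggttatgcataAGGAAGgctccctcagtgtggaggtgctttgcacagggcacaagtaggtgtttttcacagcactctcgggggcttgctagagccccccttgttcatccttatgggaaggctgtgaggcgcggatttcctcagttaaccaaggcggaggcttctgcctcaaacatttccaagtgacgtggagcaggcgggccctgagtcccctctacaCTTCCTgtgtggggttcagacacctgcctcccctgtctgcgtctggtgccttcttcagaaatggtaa
Cd3d promoter: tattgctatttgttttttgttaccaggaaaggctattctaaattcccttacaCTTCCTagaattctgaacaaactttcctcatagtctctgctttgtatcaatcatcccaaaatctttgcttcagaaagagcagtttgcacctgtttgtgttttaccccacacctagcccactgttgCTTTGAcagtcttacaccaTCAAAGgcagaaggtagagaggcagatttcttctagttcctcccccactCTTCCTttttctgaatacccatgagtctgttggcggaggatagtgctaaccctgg
Cd3g promoter: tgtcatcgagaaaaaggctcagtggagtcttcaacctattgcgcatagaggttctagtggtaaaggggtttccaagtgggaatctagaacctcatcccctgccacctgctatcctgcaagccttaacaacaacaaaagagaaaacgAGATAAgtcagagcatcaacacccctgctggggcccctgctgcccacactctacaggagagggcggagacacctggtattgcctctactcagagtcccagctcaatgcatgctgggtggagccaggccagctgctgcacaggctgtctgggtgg
The *Cd3e* window held 2 ETS matches, the *Cd3d* window 2 ETS and 2 TCF/LEF matches, and the *Cd3g* window 1 GATA match. Among 32851 promoter windows of the same length, 16.8% held the RUNX letters, 35.4% the ETS letters, 11.2% the GATA letters and 16.0% the TCF/LEF letters. Of the 8 members with a window in the RefSeq table, 4 held RUNX letters, 4 ETS letters, 1 GATA letters and 1 TCF/LEF letters, while *Cd4* and *Cd8b1* had no entry. A match is a description of the letters only.

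*Cd3e* encodes the epsilon chain of CD3, a part of every T cell receptor complex. It had 1.09, 1.52 and 1.67 CPM in Atrx-cKO 1, 2 and 3 and 1.12, 1.45 and 0.510 CPM in control 1, 2 and 3 (63, 84 and 95 against 61, 102 and 26 counts). The groups overlapped, and control 3 was the only library far from the rest, with a 95% Wilson interval of 0.348 to 0.747 CPM that lies below the 0.849 to 1.39 CPM of the next lowest library. Such intervals cover counting error only. The means were 1.43 ± 0.303 and 1.03 ± 0.475 CPM (SD, n = 3 each), with a log2 fold change of 0.39 (standard error, SE, 0.39, adjusted p = 0.992, edgeR). Without control 3 the log2 fold change was 0.078. *Cd3e* shares 135 exonic bases, 3.31% of its exon length, with *Gm48719* on the opposite strand, and the strand setting of the counting is not given in the sources used here, so reads there may belong to either gene.

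*Cd3d* encodes the delta chain, which pairs with epsilon in the same complex. It had 4.53, 1.14 and 5.99 CPM in Atrx-cKO 1, 2 and 3 and 6.75, 9.18 and 8.16 CPM in control 1, 2 and 3 (263, 63 and 341 against 367, 648 and 416 counts). All Atrx-cKO libraries lay below all controls, and Atrx-cKO 2 lay far below the other Atrx-cKO libraries. The means were 3.89 ± 2.49 CPM in Atrx-cKO and 8.03 ± 1.22 CPM in control tibias (SD, n = 3 each). The log2 fold change of -1.13 (SE 0.51) missed the threshold, with an unadjusted p of 0.0595 and an adjusted p of 0.992 (edgeR). Atrx-cKO 2 decided much of its size: without it the log2 fold change was -0.70, with an unadjusted p of 0.0222 and an adjusted p of 0.996 (edgeR). Without control 3 it was -1.11. The lowest adjusted p over the fits that left out 1 library was 0.531 (edgeR). *Cd3d* shares no exonic base with another annotated gene.

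*Cd3g* encodes the gamma chain. It had 1.38, 1.41 and 2.05 CPM in Atrx-cKO 1, 2 and 3 and 1.93, 1.43 and 0.510 CPM in control 1, 2 and 3. The groups overlapped, and control 3 was again the low library, with 26 counts as for *Cd3e*. The log2 fold change was 0.27 (SE 0.43, adjusted p = 0.992, edgeR), and -0.11 without control 3. Here as for every member, RNA from a whole bone gives a level that fewer cells of a type and less RNA per cell would lower alike, and these cannot be told apart.

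The 3 CD3 genes thus did not keep a fixed ratio. Scaled by exon length (CPM per kb of exon), *Cd3g* stood at 1.16 to 2.15 times *Cd3e* over the 6 libraries, a narrow range. *Cd3d* stood at 9.38, 1.69 and 8.07 times *Cd3e* in Atrx-cKO 1, 2 and 3 and at 13.5, 14.3 and 36.0 times in control 1, 2 and 3. Each control ratio was above each Atrx-cKO ratio, and the highest, in control 3, is where *Cd3e* was lowest. The ratio of *Cd4* to *Cd3e*, scaled alike, separated in the same way. It was 10.1, 10.6 and 8.12 in Atrx-cKO 1, 2 and 3 and 14.5, 11.4 and 23.9 in control 1, 2 and 3. Across the 6 libraries Pearson's r of log2(CPM + 0.5) was 0.86 between *Cd3e* and *Cd3g* and -0.37 between *Cd3e* and *Cd3d*. Control 3 was the lowest library of both *Cd3e* and *Cd3g*, at 0.510 CPM each, and r was not computed without it. These are descriptions over 3 Atrx-cKO and 3 control libraries, so differences between the groups enter them. *Cd3d* ran opposite to *Gzma*, with r of -0.93, and to *Klrb1c*, with r of -0.73, in the same 6 libraries. Atrx-cKO 2 was the lowest library of *Cd3d* and the highest of *Gzma* and *Klrb1c*. *Cd3d* and *Gzma* are also the members whose groups separated, in opposite directions.

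*Cd4* (ENSMUSG00000023274, chr6:124864692-124888221, minus strand) encodes the coreceptor of helper T cells and is also made by mouse plasmacytoid dendritic cells. It had the highest CPM of the 10 genes in every library, at 10.8, 16.0 and 13.4 CPM in Atrx-cKO 1, 2 and 3 and at 16.0, 16.3 and 12.0 CPM in control 1, 2 and 3. The groups overlapped, and *Cd4* varied least of the 10 genes, with its highest library at 1.5 times its lowest. The means were 13.4 ± 2.57 and 14.8 ± 2.39 CPM (SD, n = 3 each), with a log2 fold change of -0.22 (SE 0.17, adjusted p = 0.992, edgeR), and -0.33 without control 3. When any other single library was left out it ran from -0.37 to -0.095.

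*Cd8a* (ENSMUSG00000053977, chr6:71373427-71379173, plus strand) and *Cd8b1* (ENSMUSG00000053044, chr6:71322788-71337494, plus strand), 35933 bases apart, encode the alpha and beta chains of CD8, the coreceptor of cytotoxic T cells. *Cd8a* had 2.33, 2.27 and 1.21 CPM in Atrx-cKO 1, 2 and 3 and 2.48, 2.14 and 0.765 CPM in control 1, 2 and 3. *Cd8b1* had 1.21, 0.779 and 0.597 CPM in Atrx-cKO and 1.38, 0.949 and 0.588 CPM in control tibias, in the same order of libraries. For both chains the third replicate of each group was the low library and the groups overlapped. The log2 fold changes were 0.050 for *Cd8a* (SE 0.44, adjusted p = 0.997, edgeR) and -0.23 for *Cd8b1* (SE 0.39, adjusted p = 0.992, edgeR). Without control 3 they were -0.31 and -0.47. Per kb of exon, *Cd8b1* stood at 0.844 to 1.89 times *Cd8a*, and *Cd4* at 4.20 to 14.2 times *Cd8a*, the last in control 3.

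*Lck* (ENSMUSG00000000409, chr4:129548344-129573641, minus strand) encodes the kinase that phosphorylates the CD3 chains, and it is active in NK cells as well. It had 6.94, 5.76 and 5.51 CPM in Atrx-cKO 1, 2 and 3 and 7.72, 5.48 and 4.37 CPM in control 1, 2 and 3. Replicate 1 was the highest library of each group and the groups overlapped fully. The means were 6.07 ± 0.765 and 5.86 ± 1.70 CPM (SD, n = 3 each), and the log2 fold change was -0.0060 (SE 0.20, adjusted p = 0.999, edgeR), of the opposite sign to the difference of the CPM means because of the TMM scaling. Without control 3 it was -0.16. Over the 6 libraries, *Lck* moved with the CD8 genes, with r of 0.90 against *Cd8b1* and 0.83 against *Cd8a*. Control 3 was the lowest library and control 1 the highest for each of these genes.

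*Klrb1c* (ENSMUSG00000030325, chr6:128778485-128789215, minus strand) encodes NK1.1, a receptor of NK cells in certain mouse strains. It had 0.793, 1.36 and 0.825 CPM in Atrx-cKO 1, 2 and 3 and 0.699, 1.03 and 0.726 CPM in control 1, 2 and 3. The second replicate of each group was the high library and the groups overlapped. The log2 fold change was 0.19 (SE 0.34, adjusted p = 0.992, edgeR), -0.11 without Atrx-cKO 2 and 0.12 without control 3. Its counts carry a limit, since 413 of its exonic bases (14.0%) are annotated on the same strand to *Gm44511* as well, and 10.8% of its 100-base stretches occur in transcripts of *Gm44511* or of its relative *Klrb1a*.

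*Ncr1* (ENSMUSG00000062524, chr7:4337724-4345164, plus strand) encodes NKp46, an activating receptor of NK cells and some innate lymphoid cells. It had 2.33, 2.79 and 4.39 CPM in Atrx-cKO 1, 2 and 3 and 3.25, 2.68 and 2.45 CPM in control 1, 2 and 3. Atrx-cKO libraries were both the highest and the lowest, so the groups overlapped. The log2 fold change was 0.11 (SE 0.26, adjusted p = 0.994, edgeR), -0.19 without Atrx-cKO 3 and 0.041 without control 3.

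*Gzma* (ENSMUSG00000023132, chr13:113093825-113100981, minus strand) encodes granzyme A, a serine protease of the cytotoxic granules of NK cells and cytotoxic T cells. Its promoter window (chr13:113100932-113101231, minus strand, RefSeq, GRCm38.p6), shown because *Gzma* separated the groups, held 1 match to the RUNX letters, here on the opposite strand and in capitals.
Gzma promoter: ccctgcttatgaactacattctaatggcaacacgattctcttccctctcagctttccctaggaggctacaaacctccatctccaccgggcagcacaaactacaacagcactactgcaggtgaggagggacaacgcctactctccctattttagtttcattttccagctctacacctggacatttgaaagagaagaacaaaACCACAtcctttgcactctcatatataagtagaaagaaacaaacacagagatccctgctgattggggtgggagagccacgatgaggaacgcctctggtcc
*Gzma* had 3.53, 5.69 and 3.60 CPM in Atrx-cKO 1, 2 and 3 and 3.46, 2.44 and 2.28 CPM in control 1, 2 and 3 (205, 314 and 205 against 188, 172 and 116 counts). Every Atrx-cKO library was above every control, but the gap was narrow: Atrx-cKO 1 had a 95% Wilson interval of 3.08 to 4.05 CPM and control 1 of 3.0 to 3.99 CPM. The means were 4.27 ± 1.23 CPM in Atrx-cKO and 2.72 ± 0.640 CPM in control tibias (SD, n = 3 each). The log2 fold change of 0.59 (SE 0.24) had an unadjusted p of 0.0435 but an adjusted p of 0.992 (edgeR), and DESeq2 gave an unadjusted p of 0.0255 and an adjusted p of 1.0. Atrx-cKO 2 carried much of the difference: without it the log2 fold change was 0.32 with an unadjusted p of 0.197 and an adjusted p of 0.996 (edgeR). Without control 3 it was 0.49, and without control 2 it was 0.53, with unadjusted p-values of 0.116 and 0.112 and adjusted p-values of 1.0 in both fits (edgeR).

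**Figure D2:**
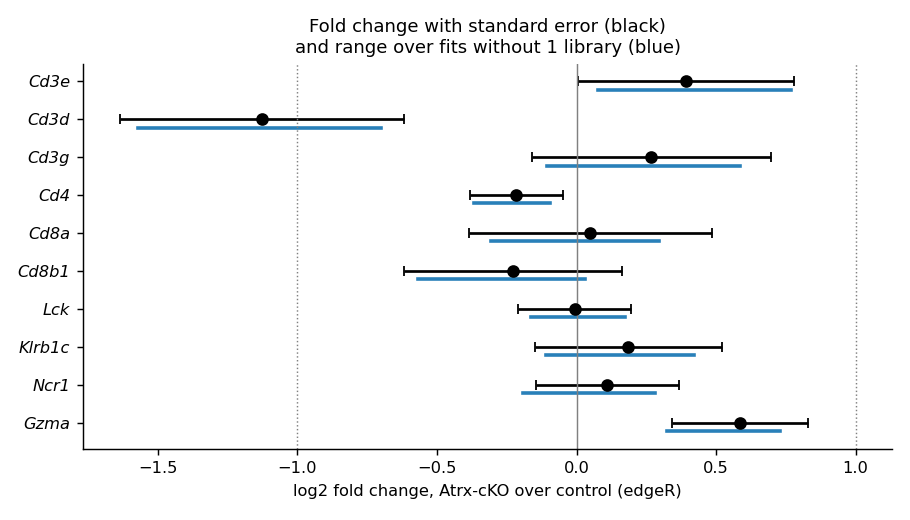
Log2 fold change of each member, Atrx-cKO over control (horizontal axis, edgeR), as points with 1 standard error (black bars) and the range over the 6 fits that each left out 1 library (blue bars). Dotted lines mark a log2 fold change of 1 in either direction. The blue bar stays on 1 side of 0 for *Cd3e*, *Cd3d*, *Cd4* and *Gzma* and crosses 0 for the other 6 genes.

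Among the 10 genes, levels per length fell into a higher and a lower set. *Cd4* had 3.49 ± 0.582, *Gzma* 3.48 ± 1.21 and *Cd3d* 3.28 ± 1.58 CPM per kb of exon (mean and SD over the 6 libraries), and these neighbors did not differ beyond their spread. *Lck*, at 2.04 ± 0.405, and *Ncr1*, at 1.94 ± 0.494 CPM per kb, did not differ from each other beyond their spread either. A wider step led to *Cd8b1* at 0.618 ± 0.219 CPM per kb, from which *Cd8a* (0.513 ± 0.193), *Cd3g* (0.444 ± 0.167), *Klrb1c* (0.306 ± 0.0850) and *Cd3e* (0.300 ± 0.102 CPM per kb) followed, each within the spread of its neighbor. *Cd3d* thus stood in the upper set while its partners *Cd3e* and *Cd3g* stood in the lower one. *Cd3d* also varied most, its highest library having 8.04 times the CPM of its lowest, against 4.03 times for *Cd3g*, 3.27 times for *Cd3e* and 3.24 times for *Cd8a*.

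**Figure D3:**
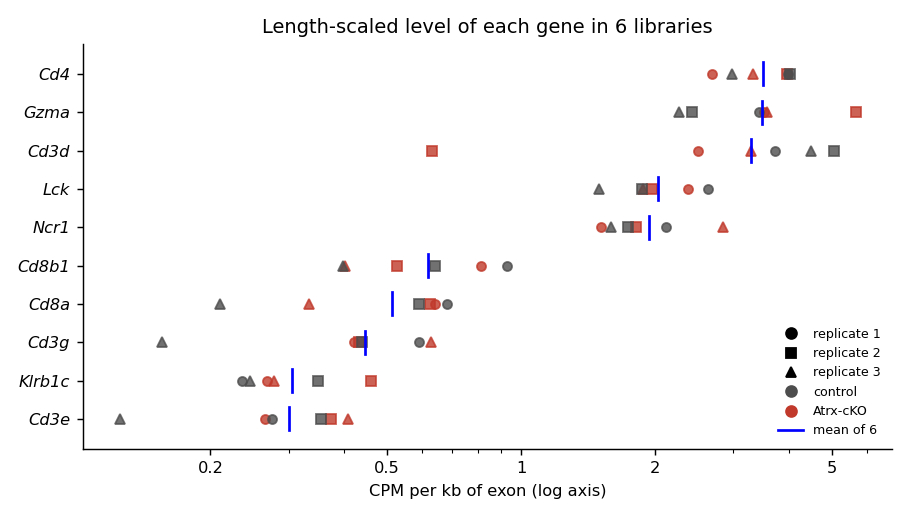
Level of each member in CPM per kb of exon (horizontal log axis), with 1 point per library (grey control, red Atrx-cKO, symbols by replicate) and the mean of the 6 libraries as a blue line. *Cd4*, *Gzma* and *Cd3d* head the order at 3.28 to 3.49 CPM per kb, and *Klrb1c* and *Cd3e* end it at 0.306 and 0.300.

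The wider T and NK programs were read with 5 further lists that share no gene with the 10 members. Of the 66 genes of these lists that could be tested, of 73 present in the tables, 0 were called in either direction by edgeR or DESeq2, and 1, *Gzmb*, had an unadjusted p under 0.05, in both tools, with the higher level in Atrx-cKO. Their median log2 fold change was 0.15, with 46 genes above 0 and 20 below, beside a median of 0.0050 over all 20636 genes. Of those 20636 genes, 10572 were above 0 and 10064 below. The 10 members had a median of 0.080, with 6 above 0 and 4 below. The median of the members was -0.13 without control 3 and -0.028 without Atrx-cKO 2, and that of the 66 genes was 0.012 without control 3. All Atrx-cKO libraries lay above all controls for 7 of the 66 genes and below for 0 on CPM, and for 6 and 1 genes on TMM-scaled CPM. These shares stand beside 7.10% and 2.26% of all tested genes on CPM and 4.30% and 4.01% on TMM-scaled CPM.

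The T cell receptor and CD3 list (8 genes tested of 8) held the constant regions of the receptor chains and *Cd247*, the zeta chain, which NK cells also use. Its median log2 fold change was 0.10, with 6 genes above 0 and 2 below, and no gene reached an unadjusted p under 0.05. The median was 0.036 without control 3 and 0.31 without control 1. *Cd247*, at 12.9 ± 1.10 CPM in Atrx-cKO and 12.0 ± 1.81 CPM in control tibias (SD, n = 3 each), was its most abundant gene, followed by *Trdc*, the delta chain constant region (2.78 ± 0.579 and 2.54 ± 1.21 CPM), and *Trac*, the alpha chain constant region (2.03 ± 0.0959 and 1.77 ± 0.0924 CPM). The groups of *Trac* separated on CPM but overlapped on TMM-scaled CPM, and its log2 fold change was 0.12 (adjusted p = 0.992, edgeR). *Tcrg-C1*, a gamma chain constant region named here after its values were seen, separated on both scales at a low level of 0.412 ± 0.0882 CPM in Atrx-cKO and 0.215 ± 0.0851 CPM in control tibias, with a log2 fold change of 0.88 (SE 0.43, adjusted p = 0.992, edgeR). *Tcrg-C2* and *Tcrg-C4*, the other gamma regions of the list, also named after their values were seen, overlapped between groups. Their log2 fold changes were 1.15 (SE 0.81) and -0.46 (SE 0.58), both with an adjusted p of 0.992 (edgeR). The gamma constant regions are near copies of each other, so the counting could divide their reads uncertainly.

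The T cell signaling and surface list (17 tested of 18) had a median log2 fold change of 0.16, with 13 genes above 0 and 4 below, and no gene at an unadjusted p under 0.05. Control libraries moved this median, to 0.063 without control 3, 0.068 without control 2 and 0.34 without control 1. *Prkcq*, a protein kinase C of the T cell synapse that muscle and platelets also make, had 29.3 ± 3.0 CPM in Atrx-cKO and 23.9 ± 8.40 CPM in control tibias. *Lat*, the adaptor of T cells and of megakaryocytes, had 27.2 ± 1.90 and 22.2 ± 9.88 CPM, and *Ubash3a* had 13.4 ± 2.70 and 11.7 ± 4.18 CPM (SD, n = 3 each). All 3 overlapped between groups. *Cd27*, a costimulatory receptor named after its values were seen, had 3.86 ± 0.325 CPM in Atrx-cKO and 2.80 ± 0.465 CPM in control tibias with every Atrx-cKO library above every control, and a log2 fold change of 0.39 (SE 0.18, adjusted p = 0.992, edgeR).

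The T cell transcription and homing list (18 tested of 18) had a median log2 fold change of 0.12, with 11 genes above 0 and 7 below, and no gene at an unadjusted p under 0.05. The sign of this median turned without control 3 (-0.049) and without Atrx-cKO 1 (-0.026), and the median was 0.017 without Atrx-cKO 2 and 0.038 without control 2. Among its abundant genes, *Zbtb7b*, a transcription factor of helper T cells, had 72.9 ± 9.17 CPM in Atrx-cKO and 69.5 ± 10.4 CPM in control tibias. *Rora*, a nuclear receptor, had 35.6 ± 5.60 and 42.5 ± 6.98 CPM (SD, n = 3 each). Both overlapped between groups. Over the 6 libraries *Zbtb7b* had a mean of 71.2 and *Rora* of 39.1 CPM, beside 1.90 CPM for *Trac* and 1.23 CPM for *Cd3e*. Which cells of the tibia these levels came from was not tested.

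The NK receptor list (15 tested of 19) had a median log2 fold change of 0.00031, with 8 genes above 0 and 7 below, and no gene at an unadjusted p under 0.05. It was -0.0037 without control 3 and between 0.056 and 0.21 without any other single library. *Cd226*, an adhesion receptor of NK cells and platelets, had 49.3 ± 3.53 CPM in Atrx-cKO and 36.9 ± 14.9 CPM in control tibias. *Il18rap*, a subunit of the interleukin 18 receptor, had 45.4 ± 5.35 and 38.5 ± 8.90 CPM, and *Cd244a* had 10.2 ± 2.50 and 9.73 ± 2.56 CPM (SD, n = 3 each). All 3 overlapped between groups. Summed over the list, CPM ran from 120 to 127 in Atrx-cKO and from 75.5 to 130 in control libraries, with the lowest in control 3.

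The cytotoxic effector list (8 tested of 10) had a median log2 fold change of 0.19. Of its genes, 8 of 8 were above 0, beside 10572 of all 20636 tested genes. The median was 0.11 without control 3 and between 0.21 and 0.36 without any other single library. *Gzmb*, granzyme B, had 1.34, 1.49 and 0.948 CPM in Atrx-cKO 1, 2 and 3 and 0.699, 0.680 and 0.373 CPM in control 1, 2 and 3. Every Atrx-cKO library was above every control library. Its log2 fold change of 1.03 (SE 0.33) had an unadjusted p of 0.0152 and an adjusted p of 0.992 (edgeR), against 0.00998 and 0.777 in DESeq2. Leaving out single libraries gave log2 fold changes from 0.81 upward, the lowest without control 3, and the unadjusted p rose to 0.0581 without Atrx-cKO 2 (adjusted p = 0.996, edgeR).

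*Prf1* (perforin) and *Ctsw* (cathepsin W), named after their values were seen, separated in the same direction on both scales. In all, 3 of the 8 tested genes of the list had every Atrx-cKO library above every control library, on either scale. Over all tested genes this held for 7.10% on CPM and 4.30% on TMM-scaled CPM. *Prf1* had 2.15, 2.66 and 1.95 CPM in Atrx-cKO 1, 2 and 3 and 1.58, 1.73 and 0.961 CPM in control 1, 2 and 3, with a log2 fold change of 0.59 (SE 0.27, adjusted p = 0.992, edgeR). Without control 3 it was 0.38 and without Atrx-cKO 2 it was 0.45. *Ctsw* had 10.2 ± 0.372 CPM in Atrx-cKO and 8.49 ± 1.0 CPM in control tibias (SD, n = 3 each), with a log2 fold change of 0.20 (SE 0.11, adjusted p = 0.992, edgeR). *Nkg7*, the most abundant gene of the list and a protein of cytotoxic granules, had 36.7, 31.2 and 29.8 CPM in Atrx-cKO and 33.1, 25.6 and 19.5 CPM in control tibias. Its groups overlapped. *Ifng*, which encodes interferon gamma and was too low to be tested, had 25 counts in Atrx-cKO 2 and between 1 and 3 counts in each of the other 5 libraries. Atrx-cKO 2 was also the highest library for *Gzma*, *Gzmb* and *Prf1*.

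**Figure D4:**
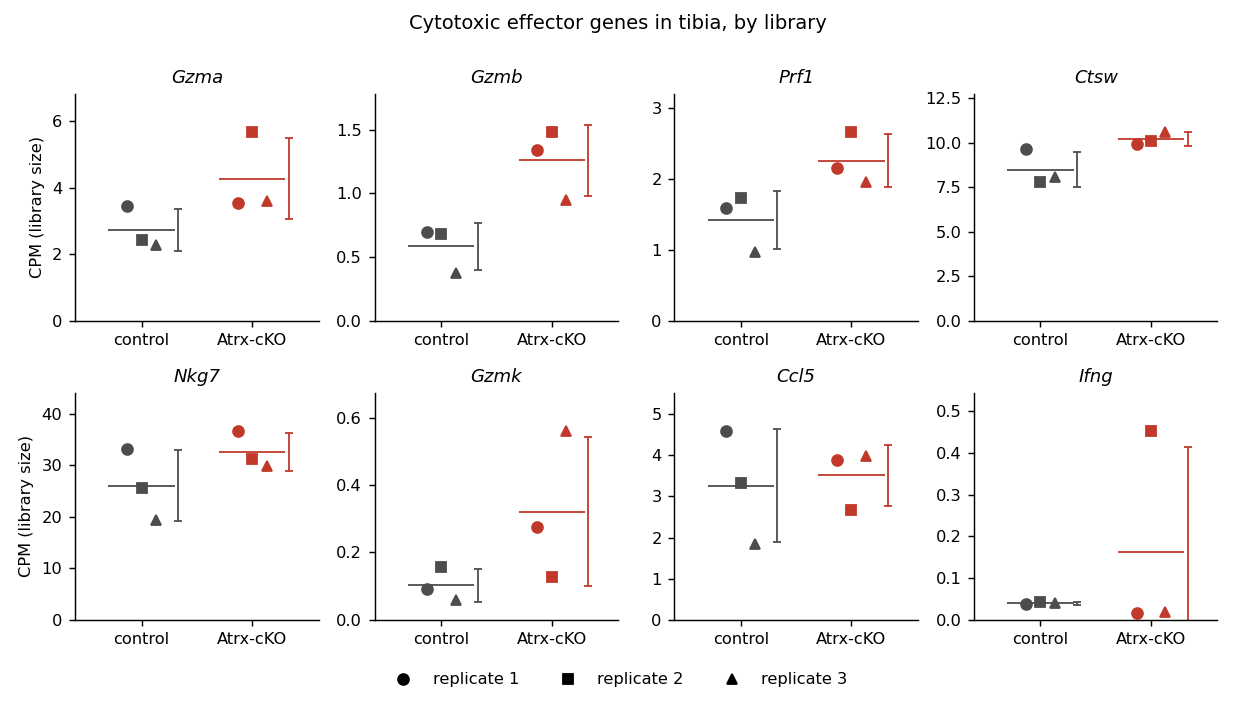
CPM of *Gzma* and 7 genes of the cytotoxic effector list (vertical axes, each from 0) in control (grey) and Atrx-cKO (red) libraries, with group means and bars of 1 SD over 3 libraries, drawn down to 0 where they would pass it. Every Atrx-cKO point lies above every control point for *Gzma*, *Gzmb*, *Prf1* and *Ctsw*, which held for 7.10% of all tested genes on CPM. *Ifng* is high in 1 library, Atrx-cKO 2, at 0.453 CPM.

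**Figure D5:**
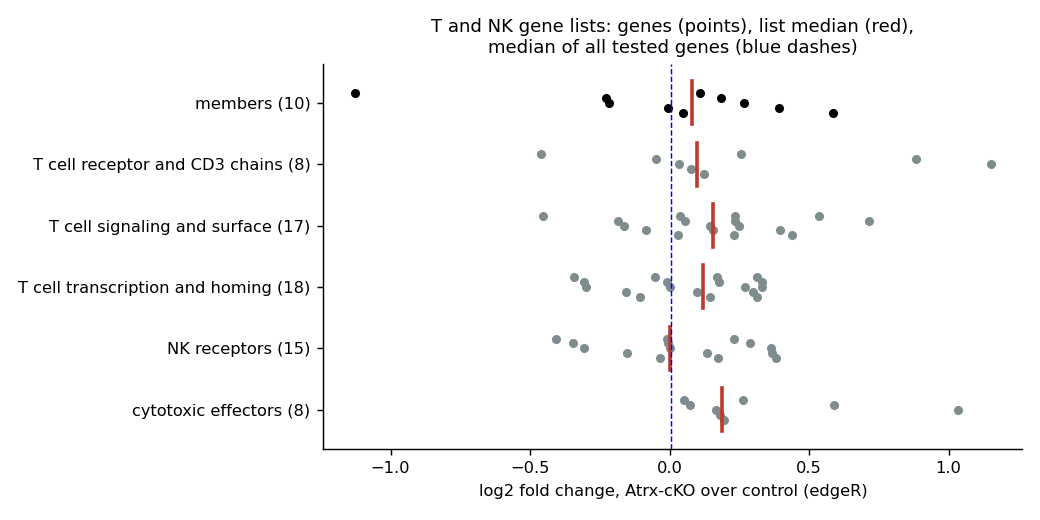
Log2 fold change, Atrx-cKO over control (horizontal axis, edgeR), of each tested gene of the members and of 5 T and NK gene lists (points, with the number tested beside each name). Red lines are list medians, from 0.00031 (NK receptors) to 0.19 (cytotoxic effectors), and the blue dashed line is the median of all tested genes at 0.0050.

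Other blood lineages had medians from 0.020 to 0.19, beside 0.00031 to 0.19 for the 5 T and NK lists. The log2 fold changes of 10 B cell genes had a median of 0.15, from 0.016 (*Vpreb3*) to 0.32 (*Cd22*), with 10 of 10 above 0. Those of 10 neutrophil genes had a median of 0.19, from 0.091 (*Elane*) to 0.32 (*S100a8*), with 10 of 10 above 0. Those of 10 macrophage genes had a median of 0.12, from -0.23 (*Csf1r*) to 0.26 (*C1qa*), with 8 above 0 and 2 below. The 9 erythroid genes tested had a median of 0.020, from -0.22 (*Klf1*) to 0.12 (*Alas2*), and the 7 plasmacytoid dendritic cell genes one of 0.042, from -0.76 (*Cox6a2*) to 0.47 (*Bst2*). Osteoblast genes had a median of -0.23, from -0.51 (*Ibsp*) to -0.082 (*Dmp1*), and skeletal muscle genes one of -1.50, from -1.98 (*Myh4*) to 0.62 (*Myh2*), with 0 of 10 genes called in each. The log2 fold change of *Myh4* turned to 1.55 without control 3, the library with the highest muscle sum. Medians of the lists in this paragraph were not computed without control 3.

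Summed levels overlapped between genotypes. The 10 members summed to 34.9, 38.7 and 39.2 CPM in Atrx-cKO 1, 2 and 3 and to 44.8, 43.0 and 32.4 CPM in control 1, 2 and 3. The 5 further lists summed to 657 to 683 CPM in Atrx-cKO and to 506 to 699 CPM in control libraries, the lowest again in control 3. Of these, the transcription and homing list alone summed to 363 to 374 CPM in Atrx-cKO and to 306 to 373 CPM in control libraries. B cell genes summed to 293 to 381 CPM in Atrx-cKO and 192 to 403 CPM in control libraries, macrophage genes to 1299 to 1538 and 1186 to 1567 CPM, neutrophil genes to 9519 to 13088 and 7025 to 11314 CPM, and plasmacytoid dendritic cell genes to 350 to 413 and 342 to 378 CPM. In each of these sums the control libraries spanned a wider range than the Atrx-cKO libraries, except for plasmacytoid dendritic cell genes. The part of these cells in the members' values was not tested. The 7 lymph node genes summed to 8.97 to 9.41 CPM in Atrx-cKO and 4.39 to 10.6 CPM in control libraries, and the 3 that could be tested had a median log2 fold change of 0.37. Of these, *Fcer2a*, which mature B cells also make, had 5.28 ± 0.0437 CPM in Atrx-cKO and 3.98 ± 2.48 CPM in control tibias (SD, n = 3 each). *Cr2*, of B cells and follicular dendritic cells, had 2.68 ± 0.621 and 1.69 ± 0.733 CPM, and *Cxcl13* had 1.08 ± 0.457 and 1.33 ± 0.727 CPM. Of the 4 genes that were not tested, *Ccl19* had between 3 and 14 counts per library, *Glycam1* at most 2, *Madcam1* at most 1 and *Ccl21a* 0 counts in all 6 libraries. The part of lymph node RNA was not tested.

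The genes outside all lists whose log2(CPM + 0.5) followed the mean of the standardized members most closely over the 6 libraries, of 16048 candidates, were *Gm26724* (r = 0.996), *Gm49521* (0.992), *Zfp60* (0.988), *Gm49396* (0.987) and *Sowahc* (0.985). That mean was lowest in control 3, at -1.07, and between -0.065 and 0.51 in the other 5 libraries. The correlations are therefore a description of 6 points of which 1 lies apart.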

How the data were processed

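Tibias of 3 Atrx-cKO and 3 control mice were used, and groups were taken from the sample labels. For every mouse the authors deposited raw counts on 55401 Ensembl identifiers, besides 5 summary entries that were left out of library sizes (reads on no feature were 51.6% to 52.4% of each table). The submitters' processing notes name GRCm38 and DESeq2, and the aligner and counter are not given in the sources used here. Names and positions come from GENCODE M21, which matched 55141 identifiers and left 260 unmatched. Libraries of 1 genotype differed by more than sampling noise (chi-square per degree of freedom 17.1 to 152). P-values weigh the difference between genotypes against the spread between libraries of 1 genotype.

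Counts were fitted with edgeR 4.0.16 in R 4.3.3 (TMM, filterByExpr defaults, glmQLFit, glmQLFTest, genotype alone) on the whole table, with Benjamini-Hochberg adjustment over 20636 genes. All p-values are two-sided. DESeq2 1.42.0 was the alternative test. The other alternatives were 3 other scalings, 2 other filters, a replicate block and leaving out each library. CPM are counts scaled to a common total of reads on genes, and CPM per kb divides them by the union of annotated exons. Wilson intervals are 95%. The fits were tested on simulated data. Exact permutation of 3 against 3 libraries, whose smallest p is 0.1, was not used.

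The members and lists were chosen with earlier results of these data known. Named were the 10 members and, of each related list, the genes at an unadjusted p under 0.05 or otherwise the 3 with the highest mean CPM, of which 1 is not reported here. Of the other cell types, summed CPM and the extreme fold changes were named, and for likeness the 5 genes with the highest correlation at a mean of at least 1 CPM. Genes named outside this rule are marked as chosen after their values were seen, except *Nkg7*, *Ifng*, *Sp7*, *Atrx* and the lymph node markers, which were also named after seeing them. Promoter sequences and motif matches are from RefSeq, GRCm38.p6.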

Additional observations from a re-analysis of the deposited data

How the results depend on the processing

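No member and no gene of the 5 related lists was called in any fit, among edgeR with other scalings or filters, DESeq2, the replicate block and the fits without 1 library. Over all genes, edgeR called 3 higher and 0 lower. DESeq2 called 10 higher and 13 lower, a filter of at least 10 counts in every library left 1 higher, no filter gave 1 lower, and leaving out 1 library gave 0 to 5 higher and 0 to 1 lower. The count was 5 higher without control 3 and 0 higher without Atrx-cKO 1, Atrx-cKO 2 or control 2. Under the replicate block, 0 genes passed as higher and 0 members had an unadjusted p under 0.05, against 1 (*Gzma*) without it, and *Gzma* had an unadjusted p of 0.0619 under the block (adjusted p = 0.974, edgeR). The same-numbered libraries' deviations from their group means correlated at -0.0036, 0.11 and -0.098. Whether the numbers pair the mice cannot be told from these values. Members at an unadjusted p under 0.05 numbered 2 without the filter (*Gzma* and *Cd3d*) and 0 to 2 without 1 library, with 2 without Atrx-cKO 3 and 0 without control 2 or control 3. The sign of 6 members turned in some fit. Without 1 library, log2 fold changes ran from -0.11 to 0.59 for *Cd3g*, -0.31 to 0.29 for *Cd8a*, -0.57 to 0.032 for *Cd8b1*, -0.16 to 0.17 for *Lck*, -0.11 to 0.42 for *Klrb1c* and -0.19 to 0.28 for *Ncr1*. *Lck* also turned with library size alone (0.052) and with the replicate block (0.0089). Scaling by library size alone moved the median of all genes by 0.072 on the log2 scale. Of 130 fits of a member, 118 kept the sign and 12 turned it, and none passed the adjusted p. The fold change of *Cd3d* was under 1 in size without Atrx-cKO 2 or control 2. With the longest transcript in place of the exon union, CPM per kb moved beyond 1 SD for *Cd3e* (0.481), *Cd4* (4.53) and *Lck* (2.73). Some fits hold fewer samples or genes by construction. For the others, the cause was not tested. Low counts limit the rarest members: 26 counts for *Cd3e* or *Cd3g* in control 3.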
